A study of Mus musculus with 20 samples.

Results

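The expression of 10 immediate early genes was followed in the frontal cortex of socially stressed mice: Fos, Fosb, Junb, Egr1, Egr2, Arc, Npas4, Nr4a1, Nr4a2 and Dusp1. They were taken by symbol, with every non-control probe whose gene name on the array was one of the 10, which gave 10 of 30210 gene names and 11 of 39429 probes, with 2 probes for Nr4a2. All 11 probes were well above background in both channels on all 20 arrays.

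The mice were male Swiss Webster mice that lived alone from 12 weeks of age and were habituated for 22 days. A stressed mouse was put as an intruder into a cage of group-housed adult males of the same stock for 10 to 15 minutes, once in the acute group and up to 3 times a day in the groups stressed for 8 or 13 days. The last group had 13 days of stress followed by 5 days of rest. Each stress group had its own control group of undisturbed siblings, housed singly in an adjacent room, so the room was shared by all mice of a treatment and cannot be told apart from stress. The acute, 8 day and 13 day mice were decapitated 24 hours after their last encounter, and the tissue was a 1 mm coronal slice of the frontal pole with orbital, prelimbic and frontal association cortex. RNA of 3 mice was mixed in each pool, and 3 stress pools per time point were compared with pools of their own siblings on 2-colour arrays, so that 12 pairs of pools gave 12 log2 ratios of stress over control per probe. A pool hides the differences between its 3 mice, and a change in the share of a cell type cannot be told apart from a change in RNA per cell.

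Immediate early genes are switched on within minutes of a synaptic or growth signal, without new protein synthesis, through transcription factors that already sit on their promoters, such as CREB and SRF. Their transcripts are short lived, so a tissue level reports on the activity of the last hour or so before death. Fos, Fosb and Junb encode parts of the AP-1 transcription factor. Egr1 and Egr2 encode zinc finger factors, Nr4a1 and Nr4a2 orphan nuclear receptors, and Npas4 a neuronal factor induced by calcium entry. Arc acts at the synapse, where it drives the removal of AMPA receptors, and Dusp1 encodes a phosphatase that switches MAP kinases off.

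The DNA stretches that CREB binds contain the letters TGACG, alone or within the palindrome TGACGTCA. In RefSeq promoters of build GRCm38.p6, taking 1 per gene symbol, 8 of the 10 genes had an entry, all but Arc and Egr1. Of these 8, 7 carried TGACG on either strand within 250 bases before the start, against 17.9% of 27025 promoters. The full TGACGTCA, which contains TGACG on both strands, was in 1 of the 8, Dusp1, and in 1.62% of all promoters. The CArG box bound by SRF was in 0 of the 8 and in 1.4% of all promoters in this window, and GCGTGGGCG, the EGR site, was in 0 of the 8 and in 0.54%. Sites farther from the start were not searched, so these counts do not show that a gene lacks such a site. One window of 30 bases per gene is shown for 6 genes, 5′ to 3′ on the gene's strand, with the match in capitals and CGTCA as the same letters on the other strand; these letters are a description and no binding was measured.
Fos, chr12:85473812-85473841, plus strand: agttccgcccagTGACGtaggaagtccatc
Fosb, chr7:19310088-19310117, minus strand: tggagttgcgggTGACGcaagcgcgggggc
Junb, chr8:84978837-84978866, minus strand: gcttcctgacagTGACGcgagccgcctcct
Npas4, chr19:4990123-4990152, minus strand: gacgtcacgggaTGACGtcggaagtctggg
Nr4a1, chr15:101266794-101266823, plus strand: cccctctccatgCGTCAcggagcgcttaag
Dusp1, chr17:26508597-26508626, minus strand: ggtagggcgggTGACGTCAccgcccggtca

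The share of probes well above background was 57.8% to 69.4% per array, and no spot was saturated. The pool number went with the slide and the scan day: pool 1 of every time point was on slide 1, pool 2 on slides 2 and 3, and pool 3 on slides 4 and 5, which were scanned on the second day. The median green intensity was 126 to 142 on the 8 arrays of that day and 78.9 to 101 on the other 12. Each slide held every time point. Pool 1 of each time point had 1 array, with the stress RNA in Cy5, while pools 2 and 3 had an original array and a dye swap that were averaged. Over the 22158 probes well above background on all arrays, the ratio of the original and that of the swap, both turned to stress over control, correlated at r = -0.41 to -0.08 in the 8 pools with both, so over all probes the 2 orientations did not repeat each other. For Fos, Arc and Nr4a1 the 2 arrays had the same sign in 8 of 8 pools, with r = 0.98, 0.96 and 0.97 over the 8 pools. Npas4 reached r = 0.95 and Dusp1 0.83, with the same sign in 7 of 8 pools each. Agreement was weaker for the downstream Nr4a2 probe at r = 0.78 (same sign in 5 of 8 pools, largest gap 0.66), Fosb at 0.76 (4 of 8), Egr2 at 0.68 (6 of 8), Egr1 at 0.66 (4 of 8) and the coding Nr4a2 probe at 0.53 (6 of 8). Junb had r = 0.10, with the same sign in 2 of 8 pools. The dye term, the mean by which an array of the original orientation lay above the average of the pair, ran from -0.08 to 0.17 among the 11 probes, and it remains in the values of pool 1.

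No immediate early gene was called at any time point. The criteria were an adjusted p below 0.05 together with a mean log2 ratio above 0.5 in either direction. The count was 0 of 11 probes after acute stress, beside 0.00507% of all probes, 0 at 8 days beside 0.00254%, 0 at 13 days beside 0.0279%, and 0 after rest beside 0%. At an unadjusted p under 0.05 the counts were 3 of 11 after acute stress beside 6.31% of all probes, 3 at 8 days beside 4.22%, 7 at 13 days beside 8.55%, and 0 after rest beside 4.02%. The 11 probes are not separate observations, since the ratios of most of the genes moved together from pool to pool and 1 gene, Nr4a2, has more than 1 probe. These counts are a description. The lowest adjusted p among the 11 probes was 0.361, for Nr4a2 after acute stress. The median log2 ratio of the 11 probes was -0.01 after acute stress, 0.12 at 8 days, 0.29 at 13 days and 0.04 after rest, while the median of all probes was 0.00 at each time point.

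The 13 day pools were the most alike. In each of the 3 pools 10 of the 11 probes had a ratio above 0, and 8 probes were above 0 in 3 of 3 pools, beside 17.8% of all probes. The probes share the same 3 pools and mostly moved together, so their number adds no replicates of the condition. The count above 0 in 3 of 3 pools was 3 after acute stress beside 14.6% of all probes, 2 at 8 days beside 11.7%, and 0 after rest beside 11.7%. The mean over the 10 genes was 0.26, 0.27 and 0.45 in pools 1 to 3 at 13 days. It was -0.36, -0.01 and 0.31 after acute stress, 0.21, 0.31 and -0.22 at 8 days, and -0.01, -0.17 and 0.39 after rest. At these 3 time points the pools of 1 treatment thus lay on both sides of 0.

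**Figure D1:**
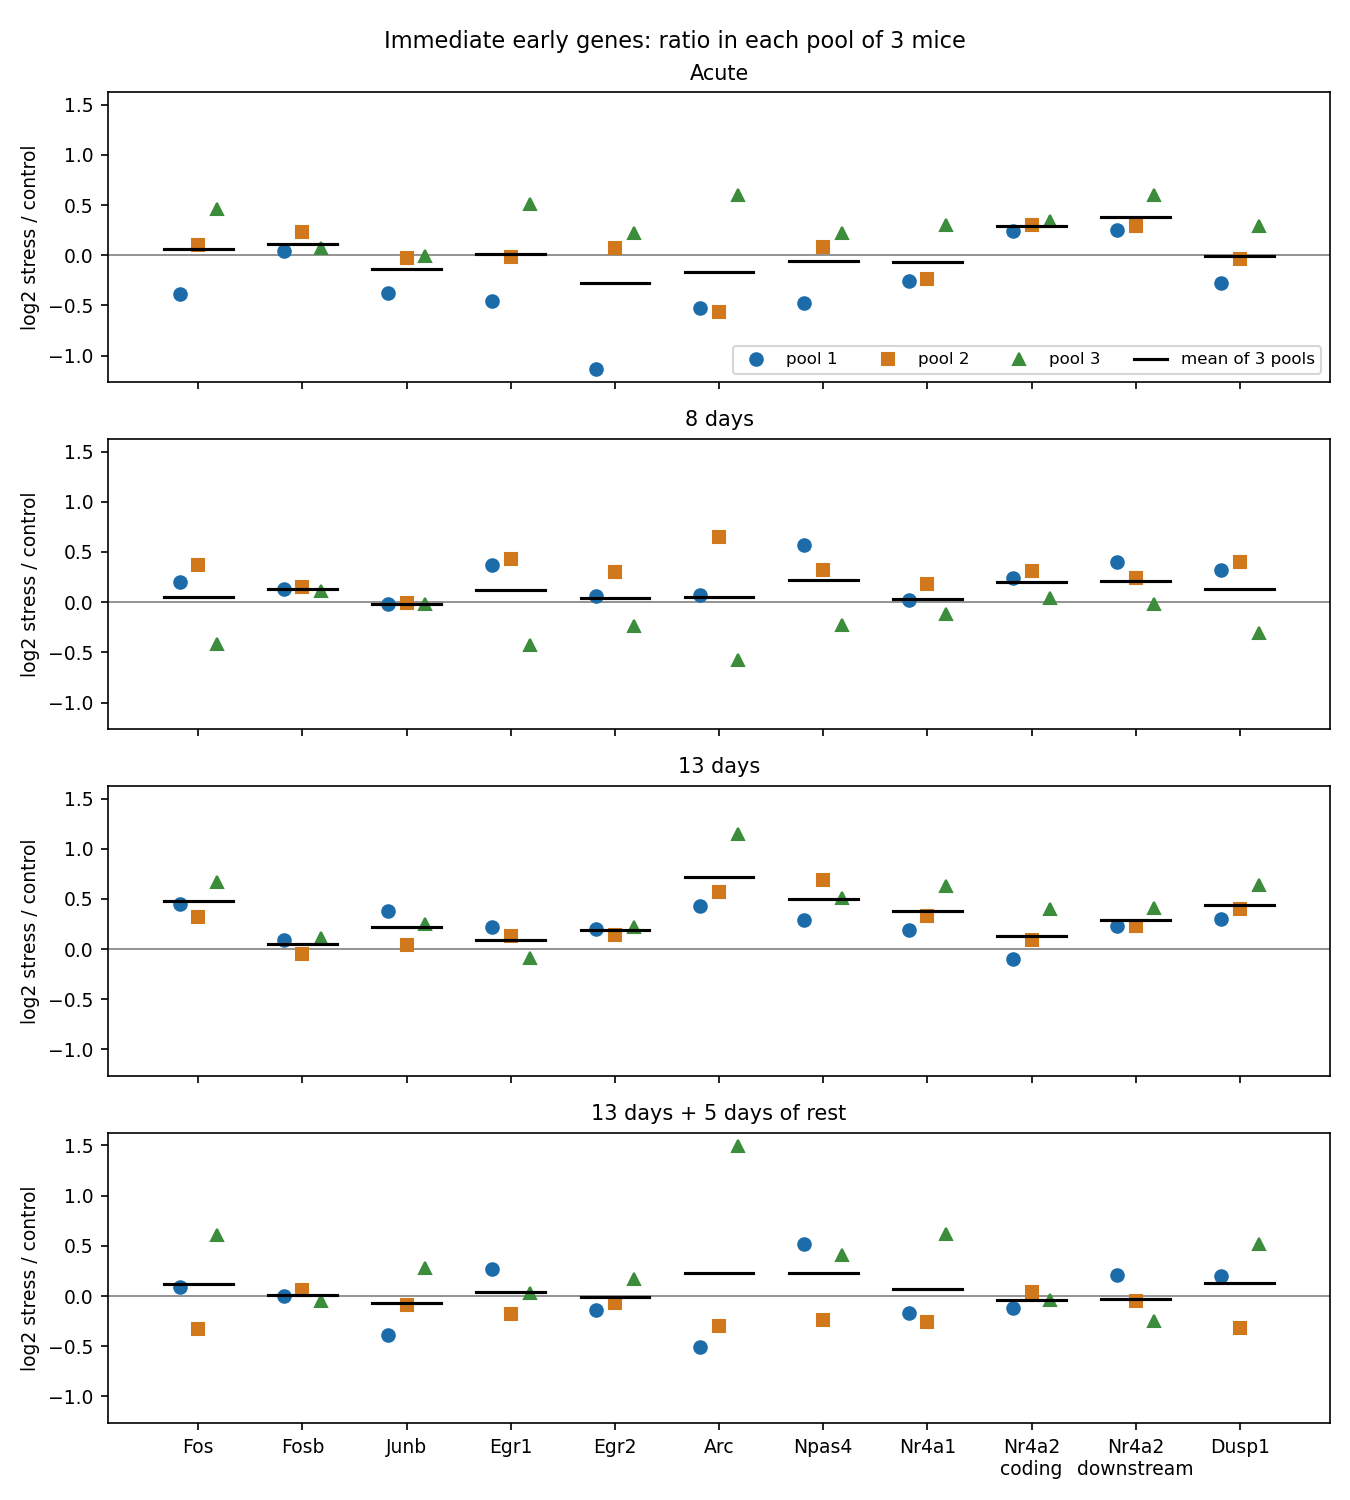
Ratio of stress to control on the log2 scale (vertical axis) for the 11 probes (horizontal axis) at the 4 time points, with a point for each pool of 3 mice and a bar for the mean of the 3 pools. At 13 days 8 probes lie above 0 in all 3 pools, while after rest none does.

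Fos is the gene on which neuronal activity mapping was built. Its log2 ratios were -0.38, 0.10 and 0.46 in acute pools 1 to 3, 0.20, 0.37 and -0.41 at 8 days, 0.45, 0.32 and 0.67 at 13 days, and 0.09, -0.33 and 0.61 after rest. Only the 13 day pools were all on one side of 0, with a mean of 0.48 ± 0.18 (SE, n = 3; adjusted p = 0.48 in limma, unadjusted p = 0.0173). The probe (mm9 chr12:86817900-86817959) was printed 10 times on each array, and the SD among its usable spots on one array was 0.03 to 0.09. An original array and its swap differed by a median of 0.19 and by at most 0.29 in the 8 pools with both. The SD between the pools of a time point was 0.17 to 0.47.

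Fosb has a splice form, ΔFosB, that builds up with repeated stimulation. Its ratios varied little, from -0.05 to 0.23 over the 12 pools. They were above 0 in 3 of 3 pools after acute stress, with a mean of 0.12 ± 0.05 (SE, n = 3; adjusted p = 0.735), and at 8 days, at 0.13, 0.15 and 0.11 (adjusted p = 0.988). At 13 days the mean was 0.05 and after rest 0.01. Junb, the partner of Fos in AP-1, was at -0.37, -0.03 and -0.01 after acute stress and at 0.38, 0.04 and 0.25 at 13 days (mean 0.22 ± 0.10, SE, n = 3; adjusted p = 0.577). These values did not overlap, and the share of all probes without such overlap was not counted. Of all probes, 14.2% were below 0 in 3 of 3 acute pools and 17.8% above 0 in 3 of 3 pools at 13 days. The difference between the 2 time points, 0.36 ± 0.14, had an adjusted p of 0.804, and the Junb probe was the one whose dye swaps did not repeat. The probes lie at mm9 chr7:19888168-19888227 for Fosb and chr8:87501881-87501940 for Junb.

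Egr1, a factor tied to synaptic plasticity and a common activity marker beside Fos, had no time point with its 3 pools on one side of 0. Its ratios were -0.45, -0.02 and 0.51 after acute stress, 0.37, 0.43 and -0.43 at 8 days, 0.22, 0.13 and -0.09 at 13 days, and 0.27, -0.18 and 0.03 after rest. Egr2 had the lowest single value of the pool ratios of the 11 probes, -1.14 in acute pool 1, where the array was not repeated with swapped dyes. The other acute Egr2 pools were at 0.08 and 0.23. At 13 days the 3 Egr2 ratios were 0.20, 0.14 and 0.22, a mean of 0.19 ± 0.18 (SE, n = 3; adjusted p = 0.823). This SE includes the spread of the other time points, while the SD of the 3 ratios at 13 days was 0.04. The Egr2 probe lies at mm9 chr10:67004798-67004857 and the Egr1 probe at chr18:35024395-35024454.

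Nr4a1 (probe at mm9 chr15:101105071-101105130) followed Fos and Arc. Its ratios were -0.26, -0.24 and 0.30 after acute stress, 0.02, 0.18 and -0.11 at 8 days, 0.19, 0.33 and 0.63 at 13 days, and -0.17, -0.25 and 0.62 after rest. The 13 day mean was 0.38 ± 0.15 (SE, n = 3; adjusted p = 0.492).

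Nr4a2, also called Nurr1 and in cortex a marker of claustrum and subplate-derived neurons, behaved in its own way. The probe within the coding region (mm9 chr2:56960699-56960758) is shown because it is 1 of 2 that measured the same gene.
Nr4a2 coding probe: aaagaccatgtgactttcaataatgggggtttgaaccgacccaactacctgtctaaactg
The second probe lies downstream, at chr2:56959637-56959696. The dye term was 0.17 for the downstream probe and -0.08 for the coding probe, and it remains in their pool 1 values. After acute stress the coding probe was at 0.25, 0.30 and 0.34 in pools 1 to 3 and the downstream probe at 0.26, 0.29 and 0.61. The 6 values were thus all above 0, with means of 0.30 ± 0.08 (SE, n = 3; adjusted p = 0.426, unadjusted p = 0.00169) and 0.38 ± 0.09 (SE, n = 3; adjusted p = 0.361, unadjusted p = 0.000996). Neither mean reached the size of 0.5 that a call needs. With a dye coefficient fitted on the 20 arrays the adjusted p in limma was 0.0252 for the coding probe and 0.0399 for the downstream probe. The estimated correlation between arrays of one pool was -0.04, so that fit counted an original array and its swap nearly as separate replicates. Those 2 values were the lowest over 24 alternatives, in which the adjusted p of each probe reached 0.948. At 8 days the coding probe was at 0.24, 0.31 and 0.04 and the downstream probe at 0.40, 0.24 and -0.01. At 13 days the coding probe was at -0.09, 0.09 and 0.40 and the downstream probe at 0.23, 0.23 and 0.41, so that 1 of the 2 was above 0 in all 3 pools at each of these time points. After rest it was at 0.21, -0.05 and -0.25, and the coding probe at -0.12, 0.04 and -0.04. The ratios of the 2 probes correlated at r = 0.66 over the 12 pools and had the same sign in 8.

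Npas4 had the lowest unadjusted p of the single-probe genes at 13 days. Its ratios were then 0.29, 0.69 and 0.51, a mean of 0.50 ± 0.16 (SE, n = 3; adjusted p = 0.421, unadjusted p = 0.00921). They were -0.48, 0.08 and 0.22 after acute stress, 0.57, 0.32 and -0.23 at 8 days, and 0.52, -0.24 and 0.41 after rest. The probe lies at mm9 chr19:4984356-4984415.

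Arc (probe at mm9 chr15:74499592-74499651) had the widest swings. The ratio was -0.53, -0.56 and 0.60 after acute stress, 0.08, 0.65 and -0.57 at 8 days, 0.43, 0.57 and 1.14 at 13 days, and -0.51, -0.29 and 1.495 after rest. The 13 day mean of 0.71 ± 0.33 (SE, n = 3) was the only one of the 44 probe means over 0.5 in size, and it had an adjusted p of 0.582 (unadjusted p = 0.0496). After rest 1 pool thus stood far above 0 while the other 2 were below it.

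Dusp1 (mm9 chr17:26642526-26642536, the array's annotation giving 11 of the 60 bases) was at -0.28, -0.04 and 0.29 after acute stress and at 0.32, 0.40 and -0.31 at 8 days. At 13 days it was at 0.30, 0.40 and 0.64, a mean of 0.44 ± 0.15 (SE, n = 3; adjusted p = 0.44, unadjusted p = 0.0116). After rest it was at 0.20, -0.32 and 0.51.

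Averaged over the 4 time points, 0 of 11 probes were called, beside 0.0127% of all probes, and 5 of 11 had an unadjusted p under 0.05 beside 12% of all probes. The Nr4a2 downstream probe had the lowest adjusted p, with a mean of 0.21 ± 0.05 (SE, n = 12; adjusted p = 0.151) and a ratio above 0 in 9 of 12 pools. Its dye term of 0.17, the largest of the 11 probes, remains in the pool 1 value of each time point and so in this mean. Fosb was above 0 in 10 of 12 pools, with a mean of 0.08 ± 0.02 (adjusted p = 0.296).

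Differences between time points were tested in the same fit. For 8 days against acute stress, 0 of 11 probes were called beside 0.00254% of all probes, and 0 had an unadjusted p under 0.05 beside 3.39%. For 13 days against acute stress, 0 were called beside 0.0178%, and 3 had an unadjusted p under 0.05 beside 5.96%: Junb, Npas4 at 0.55 ± 0.23 and Nr4a1 at 0.45 ± 0.21 (adjusted p = 0.804, 0.81 and 0.836). For 13 days against 8 days, 0 were called beside 0% and 0 had an unadjusted p under 0.05 beside 2.41%. For rest against 13 days, 0 were called beside 0%, and 1, the Nr4a2 downstream probe at -0.32 ± 0.13 (adjusted p = 0.973), had an unadjusted p under 0.05 beside 5.08%. All 11 differences between rest and 13 days were below 0, from -0.48 for Arc to -0.04 for Fosb, and since they share the 13 day pools they are not independent of the 13 day values.

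The spread between pools was wide for most of these genes. Within time points, the SD of the log2 ratio was 0.74 for Arc, 0.41 for Egr2, 0.39 for Fos, 0.37 for Egr1, 0.36 for Npas4, 0.33 for Dusp1 and 0.32 for Nr4a1. The median over the 22158 probes well above background was 0.10, and 98.7% to 99.9% of those probes had a smaller SD than each of these 7 genes. Junb at 0.21 was above 95.9% of the probes. The 2 Nr4a2 probes, at 0.15 and 0.19, and Fosb, at 0.07, were nearer the rest, Fosb being above 24.9%.

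**Figure D2:**
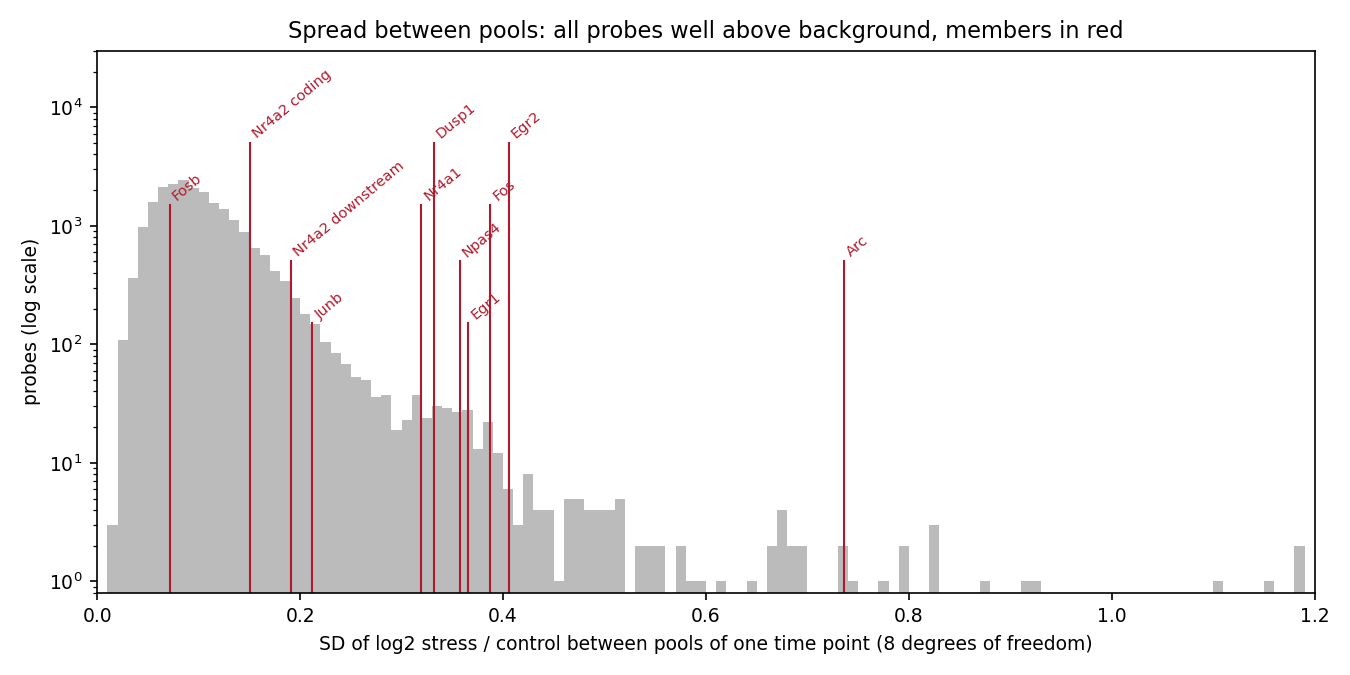
Number of probes (vertical log axis) by the SD of their log2 ratio between pools of the same time point (horizontal axis), for the 22158 probes well above background on all arrays, with the 11 immediate early gene probes as red lines. Arc, at 0.74, lies farthest out in the tail, and Fosb, at 0.07, lies within the bulk.

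Signals varied between control pools as well as between stress pools. To compare signals across arrays, the mean of each pool number was taken off within each treatment, since pool numbers differ in dyes, slides and scan day. The SD of the control signal on the log2 scale was then 0.80 for Egr1, 0.67 for Arc, 0.64 for Egr2 and 0.50 for Fos, and that of the stress signal was 0.69, 0.59, 0.66 and 0.38 in the same order. The control SD was the larger for 7 of the 11 probes and the stress SD for 4, Egr2, Fosb and both Nr4a2 probes, where it was 0.17 and 0.22 against 0.11 and 0.15 in control pools. Over all probes well above background the median SD was 0.08 in control and 0.09 in stress pools. Fosb, whose ratios varied little, had a signal SD of 0.15 in both, and 90.8% of these probes had a smaller control SD. The control signals of Egr1 spanned 3.00 on the log2 scale over the 12 pools.

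After this centring the lowest Arc control signal of the 12 was that of 8 days pool 2, at -0.86, and the highest that of rest pool 2, at 1.31. In the rest group the Arc control signals were 0.55, 1.31 and -0.50 in pools 1 to 3 and the stress signals 0.17, 0.92 and 0.33. Pool 3, with the Arc ratio of 1.495, thus had a control signal below those of the other 2 and a stress signal between theirs. Fos control signals of the rest group were 0.50, 0.89 and -0.08 and the stress signals 0.50, 0.45 and 0.20. At 13 days the Arc control signals were -0.58, -0.07 and 0.01 and the stress signals -0.02, 0.41 and 0.49, in the same order of pools.

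**Figure D3:**
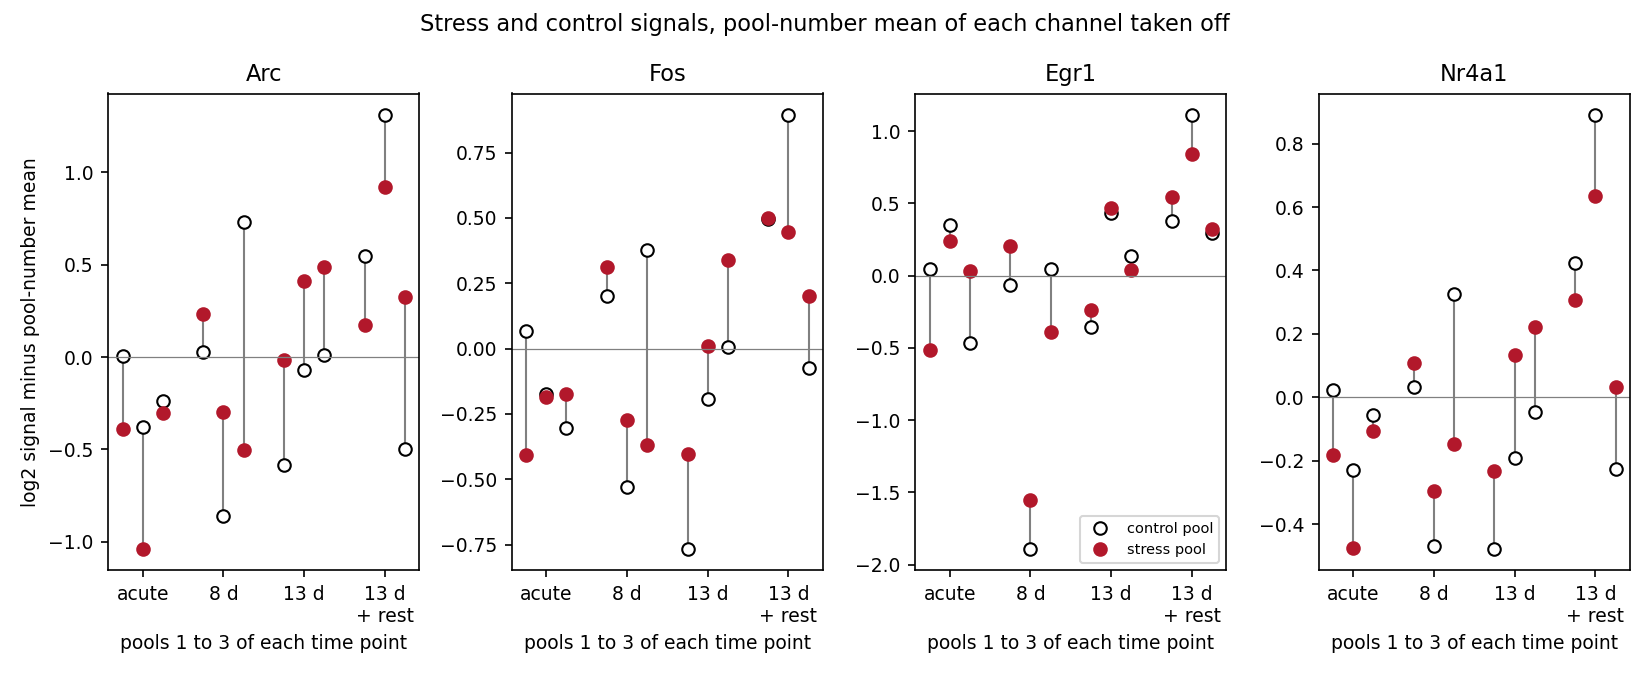
Log2 signal minus the mean of the same pool number and treatment (vertical axis, own range per panel) of Arc, Fos, Egr1 and Nr4a1 in the control pool (open) and the stress pool (red) of each pair, by time point and pool number (horizontal axis). Since each treatment is centred on its own mean, the gap within a pair is not the ratio itself. For Egr1 both signals of 8 days pool 2 lie lowest, the control at -1.89, and for Arc the control signals run from -0.86 to 1.31.

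Stress and control signals of the same pair moved together for several genes. Over the 12 pools Pearson's r was 0.90 for Egr1 (rho = 0.85), 0.83 for Egr2 (rho = 0.85), 0.83 for Fosb (rho = 0.80) and 0.74 for Nr4a1 (rho = 0.71), with permutation p-values adjusted over the 11 probes of 0.004, 0.004, 0.004 and 0.0161, and of 0.00632, 0.00632, 0.0106 and 0.0356 for rho. Without the 2 pools farthest from the median, r was 0.56 for Egr1, 0.81 for Egr2, 0.71 for Fosb and 0.32 for Nr4a1, so the Nr4a1 relation rested on those pools. With time point means taken off, r was 0.83 for Egr1, 0.86 for Fosb and 0.80 for Nr4a1 (adjusted permutation p = 0.00506 each), and 0.58 for Egr2 (adjusted permutation p = 0.112), which no longer passed. All permutations of these signals shuffled centred values over the 12 pools without allowing for the means removed. Their p-values thus tend to be too small. For Arc r was 0.42 (rho = 0.27) and for Npas4 0.40 (rho = 0.29), with adjusted permutation p-values of 0.279 each, and of 0.554 each for rho. The pairs share an array, siblings and a day of hybridisation, and which of these moved with the signals was not tested.

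The ratios of most of these genes moved together from pool to pool. Of the 45 pairs of genes, 38 had a Pearson correlation above 0 over the 12 ratios, with a median of 0.59, and 20 had a permutation p under 0.05 after adjustment over the 45, or 16 by Spearman's rho. Arc and Nr4a1 were closest, with r = 0.97 (rho = 0.84; adjusted permutation p = 0.000225 and 0.00653), then Fos and Dusp1 with r = 0.96 (rho = 0.86; adjusted permutation p = 0.000225 and 0.00431). Both relations remained without the 2 farthest pools, at r = 0.94 and 0.93, and after the mean of each time point was taken off, at r = 0.97 and 0.96. The unadjusted permutation p of 1e-05 is the smallest that 100000 permutations can give.

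Among Fos, Egr1, Egr2, Arc, Npas4, Nr4a1 and Dusp1, all 21 correlations were above 0, from 0.34 for Egr1 with Nr4a1 to 0.97, with a median of 0.71, and 16 passed the adjusted threshold. With the time point means taken off, the median was 0.74 and 13 passed, and with the pool number means taken off the median was 0.79. The permutations behind these 13 did not allow for the means removed, so fewer may hold. Without the 2 farthest pools the median was 0.65, but Egr1 with Fos dropped from 0.66 to 0.26 and Egr1 with Nr4a1 from 0.34 to 0.04. Of the 24 pairs with Fosb, Junb or Nr4a2, 4 passed, all of them with Junb, and the median was 0.13. These 7 genes were grouped after the values were seen, and the split is a description.

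**Figure D4:**
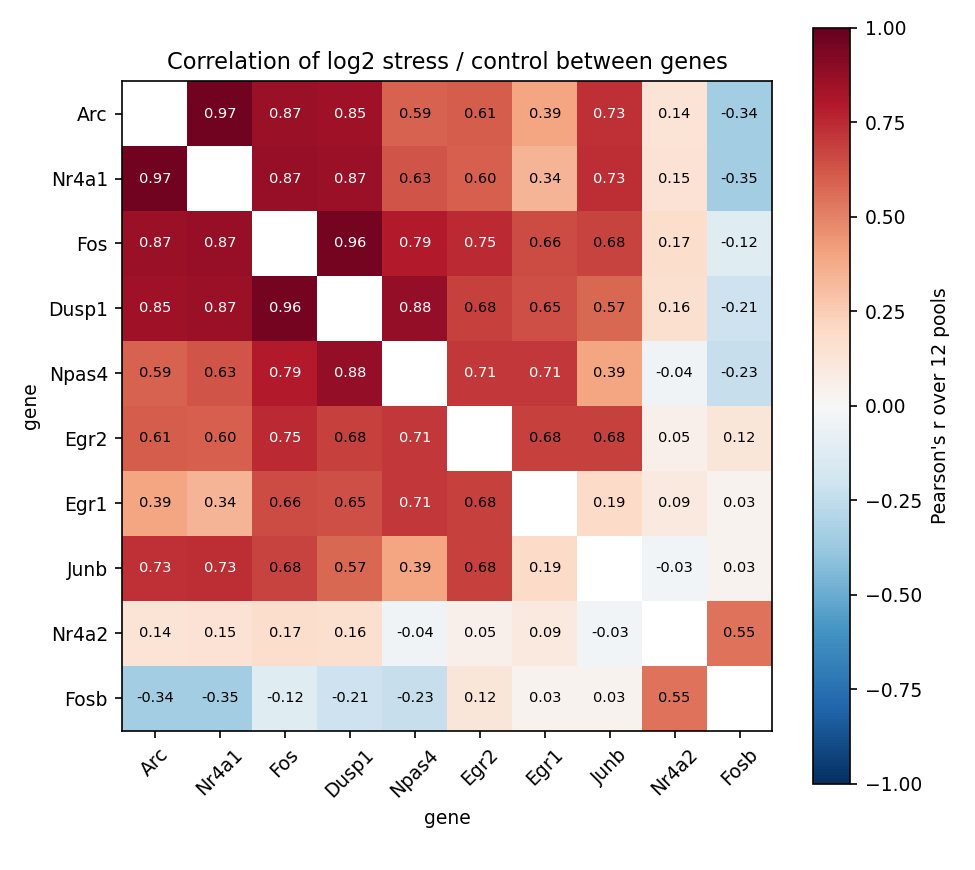
Pearson's r between the log2 ratios of each pair of the 10 genes over the 12 pools, from blue (-1) to red (1), with both axes listing the genes. Arc, Nr4a1, Fos and Dusp1 form the reddest block, with 0.97 for Arc and Nr4a1, while Fosb and Nr4a2 stay pale.

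**Figure D5:**
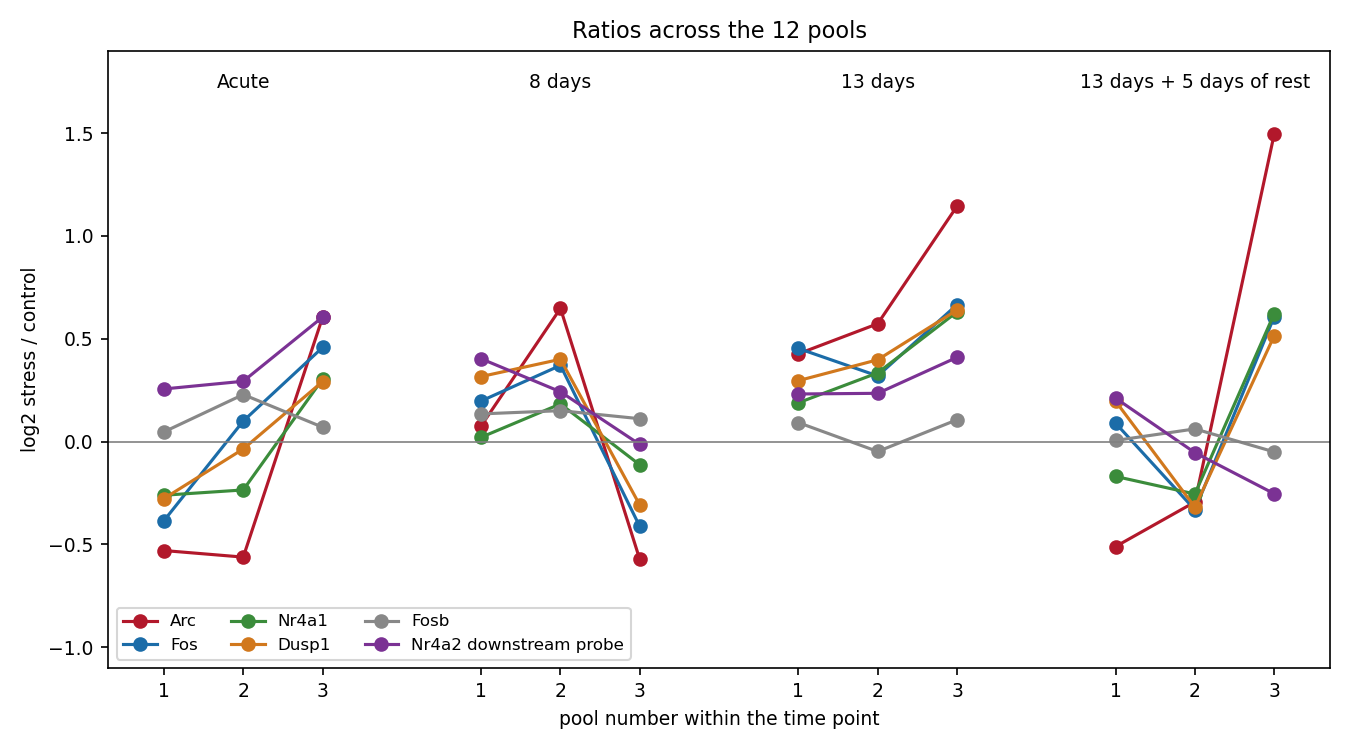
Ratio of stress to control on the log2 scale (vertical axis) in the 12 pools, by pool number within each time point (horizontal axis), for Arc, Fos, Nr4a1, Dusp1, Fosb and the downstream Nr4a2 probe. Lines join the values of a probe and stand for no order of the pools. The first 4 lie at -0.11 or lower in pool 3 at 8 days and at 0.51 or higher in pool 3 after rest, while Fosb stays between -0.05 and 0.23.

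The other genes whose ratios were most like the mean of the 10 over the 12 pools were Pdia3, an endoplasmic reticulum disulfide isomerase, at r = 0.91, Gm2016 at 0.88, Dusp6, the MAP kinase phosphatase for ERK, at 0.88, Eaf1 at 0.87 and Coq10b at 0.87. They were the highest of 14653 genes, of which the middle 95% lay between -0.64 and 0.65, and no test was made. Dusp6 ratios ran from -0.48 to 0.34.

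Genes with related roles were read from lists, with the brightest probe per gene. Among 20 other rapid transcription factors, 0 were called at any time point, and their median log2 ratio was -0.04 after acute stress, 0.01 at 8 days, -0.01 at 13 days and 0.02 after rest. Only 14 of the 20 were well above background at each time point, and the medians include the dim genes. Of the genes well above background on all 5 arrays of a time point, those with the lowest unadjusted p were Klf10 at -0.37 ± 0.13 and Myc at -0.08 ± 0.07 after acute stress, and Ier3 at 0.24 ± 0.06 and Jun at -0.17 ± 0.09 at 13 days. At 8 days they were Klf6 at 0.08 ± 0.04 and Ier3 at 0.11 ± 0.06, and after rest Klf6 at 0.09 ± 0.04 and Ier5 at -0.15 ± 0.10.

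Of 20 other rapid effectors and feedback regulators, 1 was called. Per2, a core gene of the circadian clock, rose at 13 days, with ratios of 0.75, 0.38 and 0.46 in pools 1 to 3 and a mean of 0.53 ± 0.06 (SE, n = 3; adjusted p = 0.00638). Some alternative processing settings, given at the end, called no probe at all at 13 days, so Per2 was not called there. Its mean was 0.16 at 8 days. In that list, by the same criterion, Gadd45g was at -0.15 ± 0.05 and Sgk1, a glucocorticoid-induced kinase, at 0.15 ± 0.06 after acute stress, Gadd45g was at -0.10 ± 0.05 at 8 days, and Dusp14 was at -0.07 ± 0.05 and Sik1 at 0.15 ± 0.11 after rest. The median of the list, with 17 or 18 of its genes well above background by time point, stayed between -0.03 and 0.04.

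None of 19 synaptic and secreted activity-regulated genes was called, and at an unadjusted p under 0.05 there were 4 below 0 after acute stress beside 6.31% of all probes in either direction, 4 below 0 at 8 days beside 4.22%, 2 below 0 at 13 days beside 8.55%, and 4 above 0 after rest beside 4.02%. The genes with the lowest p were Nrn1 at -0.27 ± 0.07 and Ptgs2 at -0.15 ± 0.06 after acute stress, and Scg2 at -0.22 ± 0.06 and Crh at -0.21 ± 0.07 at 8 days. At 13 days they were Scg2 at -0.19 ± 0.06 and Inhba at -0.21 ± 0.07, and after rest Ptgs2 at 0.18 ± 0.06 and Rheb at 0.15 ± 0.05. The median of this list was -0.10, -0.06, -0.00 and 0.09 in the same order of time points.

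The factors upstream of these genes moved little. Of 15 upstream transcription factors 0 were called, and the lowest and highest mean of any of them at any time point were -0.07 and 0.14. The largest was Srf at 8 days, at 0.14 ± 0.06, beside Crebbp at 0.12 ± 0.08, and at 13 days Srf was at 0.12 ± 0.06 and Mkl1 at -0.07 ± 0.04. Creb1 at 0.10 ± 0.06 and Mkl2 at -0.06 ± 0.04 had the lowest p after acute stress, and Mef2a at 0.10 ± 0.08 and Hdac5 at -0.05 ± 0.05 after rest. Of 21 MAP kinase and calcium signalling genes 0 were called. Grin2b, an NMDA receptor subunit, was at -0.32 ± 0.08 at 13 days (adjusted p = 0.308), with Camkk2 at -0.08 ± 0.04. Camk2a was at 0.06 ± 0.06 after acute stress, 0.12 ± 0.06 at 8 days, -0.10 ± 0.06 at 13 days and 0.14 ± 0.06 after rest, Map2k1 at -0.12 ± 0.09 after acute stress, Mapk3 at 0.18 ± 0.09 at 8 days and Grin1 at -0.16 ± 0.09 after rest.

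Markers of other cells moved at some of the same time points. All 6 red cell genes, 5 hemoglobin genes and Alas2, were called higher at 13 days, with means of 1.15 to 1.60 and a median in pools 1 to 3 of 1.37, 1.58 and 1.22. The member ratios of 13 days were obtained in these pools. At 8 days the red cell median was 0.70, with 0 called. After acute stress, where Nr4a2 was above 0 in all pools, all 6 oligodendrocyte markers were above 0 in 3 of 3 pools, with a median of 0.30, and Mobp, a myelin protein gene, was called at 0.52 ± 0.06 (SE, n = 3; adjusted p = 0.00857). In the same comparison 9 markers of deep layer, subplate and claustrum neurons, 7 of them well above background, had a median of 0.02. Tbr1 was at 0.21 ± 0.05 (adjusted p = 0.361), and 0 were called. At 13 days the same list had a median of 0.04, and Ctgf was at 0.35, 0.44 and 1.05 in pools 1 to 3, a mean of 0.61 ± 0.11 (SE, n = 3; adjusted p = 0.109). The 11 neuronal markers, all well above background, had medians of 0.02 to 0.05 over the time points. The calls of the red cell genes and of Mobp, like that of Per2, were absent under some alternative settings given at the end.

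The olfactory bulb lies beside the slice at this level. Its 9 markers, 7 of them well above background, had a median of 0.07, 0.26 and -0.34 in acute pools 1 to 3, where the 10 genes had means of -0.36, -0.01 and 0.31. Over the 12 pools, the mean of the 10 genes correlated with the median of the olfactory bulb list at r = -0.46 (rho = -0.62), with permutation p-values adjusted over 8 marker lists of 0.541 and 0.137. The lowest was microglia, at r = -0.75 (rho = -0.80; adjusted permutation p = 0.0546 and 0.024). Without the 2 farthest pools r was -0.55, and with time point means taken off it was -0.76 (adjusted permutation p = 0.0433). That last p did not allow for the means removed and tends to be too small. The microglia list itself had medians of only -0.03 to 0.06 over the time points. For the red cell list r was 0.30 (rho = 0.20; adjusted permutation p = 0.688 and 0.708). The part of other cells in the values of the 10 genes was not tested. These 8 relations were added after the data were seen.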

How the data were processed

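RNA was measured in 12 pairs of stress and control pools on 20 two-colour Agilent arrays. The deposited scanner files hold red and green mean and local background intensities per spot, written per the file headers by Agilent Feature Extraction. The deposited value table holds the authors' log2 ratios of the same arrays, already turned to stress over control, and served as an alternative. The study's methods name limma with normexp, loess and Aquantile normalization. Here limma 3.58.1 in R 4.3.3 was used with normexp (offset 50), loess and Aquantile, control spots were left out, and probe replicates and dye swaps were averaged, giving 12 ratios per probe. A coefficient per time point was fitted with eBayes, and p-values were adjusted over all 39429 probes by the Benjamini-Hochberg method. Calls needed an adjusted p below 0.05 together with a mean log2 ratio above 0.5 in either direction.

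Spots with a local background of at least 2 times the channel median (0 to 141 per array) were left out of the normexp fit. With all spots, the fitted noise reached 6020 on the intensity scale and exceeded 10 on 9 arrays, against at most 2.21 without them, and dim ratios on those arrays shrank toward 0. This was chosen after the data were seen, and the fit on all spots is given as an alternative. The authors' table correlated at 0.92 to 1.00 with ratios of the all-spot fit and at 0.155 to 1.00 with those used here, both without offset.

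Correlations used Pearson's r and Spearman's rho with 100000 two-sided permutations. Depth is not defined for arrays, and their number limits the precision. The methods describe the 3 pools per group as independent RNA pools. The SE and p-values of the limma fit use a spread estimated per probe from the pools of all time points together and moderated by eBayes. They thus do not measure the spread of the 3 pools of a time point alone. Pools of the same number shared slides and a scan day across time points. Dye-swap arrays of pool 1 were not analysed here. The fit was run on simulated data with known changes. The outcome is not given here, so it tells nothing about the power to call changes of the sizes seen. The members and lists were chosen with earlier results of these data known. Genes named from other lists were called, or, where a list had none called at a time point, were among the 2 of lowest p among genes well above background on all 5 arrays of that time point. Not all such marker genes are named, and the 13 day value of Camk2a was added after it was seen. Alternatives covered background correction, normalization, the value table, a filter on dim probes, slide, dye and pool number terms, robust eBayes and each pool left out.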

Additional observations from a re-analysis of the deposited data

Results flagged for a closer look

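Junb was on opposite sides of 0 in all pools of 2 time points. Its ratios were below 0 in 3 of 3 pools after acute stress and at 8 days and above 0 in 3 of 3 pools at 13 days. The shares of all probes that did so were 14.2%, 10.7% and 17.8%, each counted at its own time point. The difference was 0.36 on the log2 scale between 13 days and acute stress (limma, adjusted p = 0.804) and 0.24 between 13 days and 8 days (adjusted p = 1.00). At 8 days the 3 values lay between -0.02 and -0.004, and in 2 of 8 pools the original and the swapped array had the same sign.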

How the results depend on the processing

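No probe of the 10 genes was called under any of the 12 processing alternatives or when any of the 12 pools was left out, at any time point, in the mean or in the differences, so the counts ranged from 0 to 0. Normexp without offset, median centring alone and the authors' value table called 0 of all probes on the array in every comparison. Robust eBayes called 0 of all probes at 8 days, at 13 days, after rest and in the mean. The main fit called 0 of all probes after rest. In these cases the count of 0 for the 10 genes was fixed and tells nothing about them. Of 1188 single log2 ratios under the processing alternatives 1118 had the same sign, and of 1188 with a pool left out 1133. The median of the 11 probes moved by more than the spread between pools in 2 cases, to 0.44 at 13 days with normexp without offset, and to 0.29 after rest with median centring alone. With pool number as a replicate block the count called was 0, so it changed no call. The medians, at -0.01, 0.12, 0.29 and 0.04, could not change with this block, since each time point held every pool number once. Of 18 pairs of pools with the same number at different time points, 13 correlated over 0.1 and the lowest was -0.24, so the numbers pair the samples only in part and 7 of 12 pools were closest to one of their own number. With all spots in the normexp fit, an alternative chosen after seeing the data, 0 of the 11 probes were called and Fos at 13 days was at 0.35. The 13 day calls of Per2 and the red cell genes were absent with normexp without offset, median centring alone, the authors' value table and robust eBayes. The acute call of Mobp was absent under the same settings apart from robust eBayes, where its call was not looked up. It was also absent when acute pool 1 or acute pool 3 was left out, where 0 of all probes were called after acute stress.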
